A study of Homo sapiens with 4 samples.

Results

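The 237 genes described here are the named autosomal genes that span at least 400000 bases in the annotation and that OVCAR3 cells expressed. They were chosen by their annotated span, taken from the smallest start to the largest end of all transcripts of a gene, and by a mean of at least 1 FPKM over the 4 libraries. FPKM counts sequenced fragments relative to transcript length and library depth, and is here summed over the transcripts of a gene. Of 60605 annotated genes, 540 named autosomal genes reached this span, and 303 of those stayed under 1 FPKM, with 23 of them listed at 0 in all 4 libraries. In all, 12238 named autosomal genes of any span had a mean of at least 1 FPKM, and these are called expressed genes below. Span and mean level are therefore a description of the members, and the difference between the treatments was not itself a criterion. The mean takes in the etoposide libraries, so a gene near the level limit can reach it through them alone. TIAM2, CACNA2D1 and PCSK5 lay under the limit in the mean of the DMSO libraries, so their higher values are in part set by the choice.

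Messenger RNA was sequenced from OVCAR3, an established line of human ovarian adenocarcinoma cells. There were 2 libraries of cells given DMSO, the vehicle, and 2 of cells given etoposide at 1.7 µM for 24 h, labelled as biological replicates of this 1 cell line. Before that, both groups had been held for 16 h in nocodazole at 100 ng/ml, a drug that blocks the mitotic spindle, then washed and released for 3 h. The deposited values imply between 47687000 and 66501000 read pairs a library, and each member rested on at least 36 estimated fragments in every library. All 10 markers of ovarian carcinoma cells were above 1 FPKM. Their summed level was 3395 and 3024 FPKM with DMSO and 2380 and 2444 FPKM with etoposide, lower in both etoposide libraries, and its part in the results was not tested. KRT8 and KRT18 carried most of that difference, EPCAM was higher in both etoposide libraries, and CDH1 and WT1 overlapped between the groups. Of 9 measured leukocyte, 6 endothelial and 8 fibroblast markers, 0, 1 and 2 reached 1 FPKM, and 5, 3 and 3 were under 0.1 FPKM. The summed level ran from 1.299 to 1.94 FPKM over the leukocyte and from 4.604 to 5.78 FPKM over the endothelial markers. Over the fibroblast markers it was 7.33 and 7.49 FPKM with DMSO and 8.73 and 8.46 FPKM with etoposide, higher in both etoposide libraries, and its part in the results was not tested. COL1A1 (4.36 and 4.42 FPKM with DMSO, 6.11 and 5.80 FPKM with etoposide) carried that rise, and DCN and PDGFRB were also higher in both etoposide libraries. COL1A2, LUM, FAP and THY1 were lower in both, and COL3A1 overlapped between the groups. In bulk RNA, fewer cells of a type and less RNA per cell cannot be told apart.

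Etoposide traps topoisomerase II on the DNA that it has cut, and topoisomerases relieve the twist that builds up around a moving RNA polymerase. Transcription of a very long gene takes hours, so that its full transcript appears late after mitosis and depends on a template without breaks. Very long genes are often adhesion molecules, cytoskeletal proteins and regulators of development, and several of them lie at common fragile sites, regions that break when replication is slowed. The comparison asks how such genes were expressed after etoposide, beside genes with transcripts of similar length that are spread over much less DNA.

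The members were mostly low in level and rich in exons. Of the 237, 226 were protein-coding and 11 were long noncoding RNA genes. Their median level was 4.47 FPKM against 8.11 FPKM over the expressed genes, and 194 of them stayed under 10 FPKM. Their transcripts had a median length of 5269 bases against 2825 bases, and a median GC content of 44.9% against 48.2%. A transcript had a mean of 14.2 exons in the median member, against 7.72 over the expressed genes. Chromosome 3 held 30 members, and chromosome 19 held 0 although 853 expressed genes lie there.

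The annotated span overstated what these cells transcribed. When the span of each transcript was weighted by its FPKM, 125 members kept a span of at least 400000 bases, 96 fell between 100000 and 400000 bases and 16 fell under 100000 bases. CAMTA1, a calmodulin-binding transcription activator, spans 984252 bases, but 57.4% of its FPKM came from 1 transcript that spans 86558 bases. In contrast PTPRD, a receptor tyrosine phosphatase and the longest member, spans 2298756 bases, and 81.7% of its FPKM came from a transcript of that full span.

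The values nearest the limits are given as a description. LMCD1-AS1 and PCSK5 lay just above the level limit at mean FPKM of 1.002 and 1.005, and FRY and SUPT3H lay just below it at 0.962 and 0.967. BMPR1B and TRPS1 lay just above the span limit with 400493 and 401177 bases, and SPATA5 and DTNA lay just below it with 396363 and 398553 bases.

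No member passed the gene test. The test was limma on log2(FPKM + 0.1) over 22185 genes with Benjamini-Hochberg adjustment, and 0 of them had an adjusted p under 0.05 (0% of all genes tested and 0 of 237 members). The smallest adjusted p was 0.169 over all genes and 0.269 among the members. At an unadjusted p under 0.05, 13 members were higher (5.49%) and 19 were lower (8.02%) after etoposide, beside 7.06% higher and 4.85% lower of all genes tested. By size, 1 member (RORA) was at least 1.5-fold higher and 2 (NPAS3 and ROBO2) were at least 1.5-fold lower, beside 3.78% and 3.06% of all genes tested. With voom on estimated fragments, 1 of all genes and 0 members passed. The labels call the replicates biological without naming separate cultures, so that p-values measure the spread between these 2 and 2 libraries, and for a single value an exact permutation test of 2 against 2 cannot go below 0.333.

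Over all 4 libraries, the members had no common direction. By sign 119 were higher (50.2%, beside 56.2% of all genes tested) and 118 lower (49.8%, beside 43.8%). The median log2 fold change was 0.0045, and 0.036 over all genes tested. The split moved with the scaling of the libraries, to 144 higher and 93 lower with TPM and to 92 higher and 145 lower when each library was set to the same median. The median of all genes moved with it, to 0.10 and −0.033, and that of the members lay below it in each case, at 0.072 and −0.065. Both etoposide libraries lay above both DMSO libraries in 42 members (17.7%, beside 28.9% of all genes tested and 33.2% of expressed genes). Both lay below in 61 members (25.7%, beside 19% and 20.7%).

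Of the 6 members of smallest unadjusted p with higher values, 2 had an FPKM-weighted span of at least 400000 bases, beside 125 of all 237 members. DIAPH3, a formin that nucleates actin filaments (chr13:59665583-60163928, minus strand), measured 4.38 and 5.71 FPKM with DMSO and 7.198 and 7.35 FPKM with etoposide. Both etoposide libraries lay above both DMSO libraries, and the log2 fold change was 0.53 ± 0.14 (SE) with an adjusted p of 0.340 (limma, Benjamini-Hochberg). NRXN3, a neurexin of the presynaptic membrane that spans 1697918 bases, measured 2.03 and 2.63 FPKM with DMSO and 3.59 and 3.08 FPKM with etoposide, a log2 fold change of 0.50 ± 0.16 (SE). TIAM2, an exchange factor for the GTPase RAC, measured 0.958 and 0.843 FPKM with DMSO and 1.24 and 1.36 FPKM with etoposide. It reached the level limit only through the etoposide libraries. Its exons overlap those of an expressed gene on the opposite strand. No strand setting was stated for the authors' counting, so that reads of both genes may be mixed. ZNF385B, a zinc finger protein, measured 1.23 and 1.44 FPKM with DMSO and 1.97 and 1.84 FPKM with etoposide. The noncoding KCNMB2-AS1 measured 1.13 and 0.920 FPKM with DMSO and 1.47 and 1.58 FPKM with etoposide, and it rested on only 54 estimated fragments in its lowest library. In each of these genes the groups did not overlap.

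GPR158, an orphan G protein-coupled receptor, had the smallest p of the higher members, and the higher level was that of a short transcript. The gene measured 2.56 and 3.05 FPKM with DMSO and 4.47 and 3.86 FPKM with etoposide, a log2 fold change of 0.55 ± 0.14 (SE) (adjusted p = 0.321 by limma with Benjamini-Hochberg). Its most abundant transcript spans only 8013 bases and measured 0.785 and 0.660 FPKM with DMSO and 3.02 and 2.38 FPKM with etoposide. Its transcripts of at least 400000 bases together measured 1.18 and 1.73 FPKM with DMSO and 0.296 and 0.513 FPKM with etoposide, in the opposite direction. The log2 ratio of these to its transcripts under 100000 bases differed by −3.04 between the groups, and by −3.33 without DMSO replicate 1 and −2.75 without DMSO replicate 2.

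The 6 members of smallest p with lower values all had an FPKM-weighted span of at least 400000 bases, beside 125 of all 237 members. The weights are the FPKM of these same libraries, so the contrast with the higher members is a description. NPAS3, a transcription factor of the bHLH-PAS family (chr14:32934396-33820863, plus strand), had the largest difference of all members and measured 11.8 and 13.6 FPKM with DMSO and 4.81 and 7.59 FPKM with etoposide. Its log2 fold change was −1.05 ± 0.22 (SE), with an adjusted p of 0.285 (limma, Benjamini-Hochberg) and no overlap of the groups. Without etoposide replicate 2 the adjusted p of NPAS3 was 2.89e-04 (limma, Benjamini-Hochberg), in a fit that called 0.46% of all genes (0.27% lower), and over the other alternatives it ran from 0.0631 to 0.360. That fit assumes that the lone etoposide library varies like the DMSO pair. The most abundant NPAS3 transcript spans 864933 bases and measured 6.28 and 7.79 FPKM with DMSO, was listed at 0 in etoposide replicate 1 and measured 3.04 FPKM in etoposide replicate 2.

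GALNT17, of the enzyme family that starts O-linked glycosylation (chr7:71132144-71713600, plus strand), had the smallest p of all members. It measured 10.96 and 10.9 FPKM with DMSO and 8.09 and 7.53 FPKM with etoposide, and the replicates of each group lay close together. The log2 fold change was −0.48 ± 0.091 (SE), with an adjusted p of 0.269 (limma, Benjamini-Hochberg), and 94.5% of its FPKM came from 1 transcript that spans 581455 bases. THSD4, a fibrillin-binding protein of the extracellular matrix (chr15:71096952-71783383, plus strand), measured 4.48 and 4.796 FPKM with DMSO and 3.18 FPKM in each etoposide library. CPNE4, a copine that binds membranes in the presence of calcium, measured 8.45 and 9.76 FPKM with DMSO and 6.15 and 6.71 FPKM with etoposide. ROBO2, a receptor for the SLIT guidance ligands that spans 1743269 bases, measured 1.697 and 1.91 FPKM with DMSO and 1.19 and 0.995 FPKM with etoposide. GLIS3, a zinc finger transcription factor, measured 13.7 and 16.3 FPKM with DMSO and 10.9 and 10.8 FPKM with etoposide. In these genes both etoposide libraries lay below both DMSO libraries. The log2 fold changes of the 6 ran from −1.15 (NPAS3) to −0.48 (GALNT17) without DMSO replicate 1 and from −0.95 (NPAS3) to −0.33 (GLIS3) without DMSO replicate 2.

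**Figure D1:**
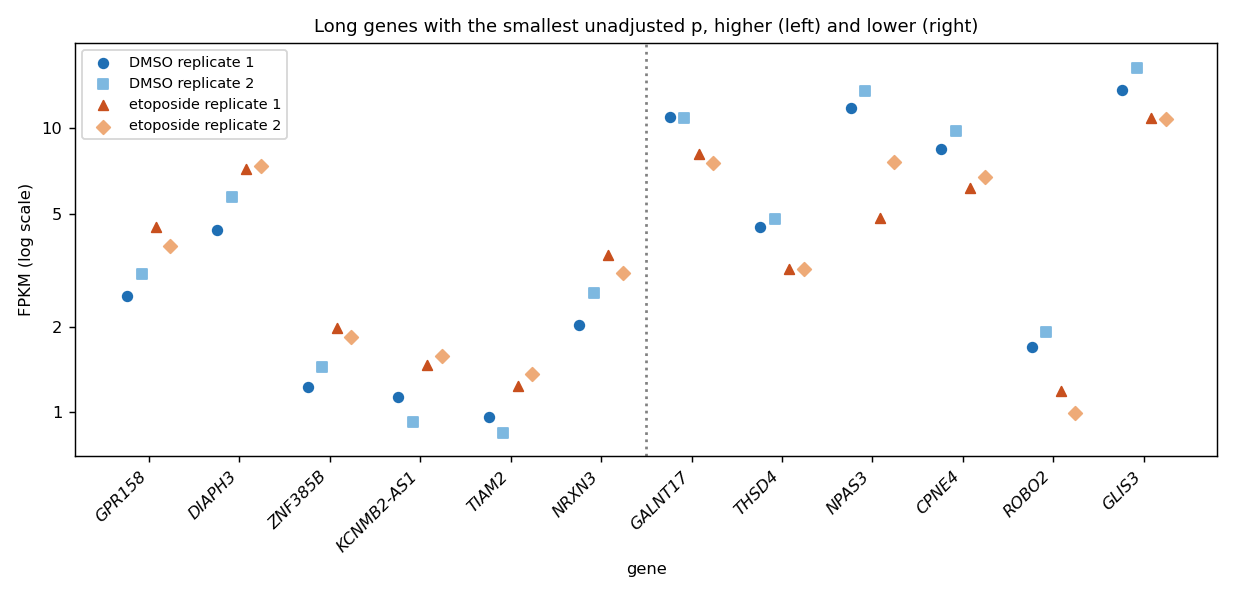
FPKM (log scale) of the 12 long genes of smallest unadjusted p, 6 higher and 6 lower after etoposide, with one point per library. In all 12 genes both etoposide points lie on the same side of both DMSO points, for example 4.81 and 7.59 FPKM against 11.8 and 13.6 FPKM for NPAS3. The genes were chosen by p from these same libraries, so the separation follows in large part from the choice.

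Promoter sequences are shown for the 2 higher and the 2 lower members of smallest p whose RefSeq start lay within 100 bases of the start of their most abundant transcript. Both starts are the same base in DIAPH3, PRKCA and GALNT17, and in THSD4 the start of the most abundant transcript lies 58 bases downstream, just past the printed sequence. The sequences run from 250 bases before to 50 bases after the start (RefSeq, GRCh38.p14), 5′ to 3′. Each CG dinucleotide, the pair that is dense in CpG islands, is in capitals. The sequences lie at DIAPH3 chr13:60163879-60164178 on the minus strand, PRKCA chr17:66302363-66302662 on the plus strand, GALNT17 chr7:71131894-71132193 on the plus strand and THSD4 chr15:71096644-71096943 on the plus strand.
DIAPH3: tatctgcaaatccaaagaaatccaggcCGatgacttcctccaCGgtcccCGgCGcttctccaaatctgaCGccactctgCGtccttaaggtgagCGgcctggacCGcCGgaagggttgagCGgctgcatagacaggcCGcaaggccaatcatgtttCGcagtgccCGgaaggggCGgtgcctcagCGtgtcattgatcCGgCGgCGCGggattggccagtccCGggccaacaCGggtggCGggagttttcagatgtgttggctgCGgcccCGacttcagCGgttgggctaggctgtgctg
PRKCA: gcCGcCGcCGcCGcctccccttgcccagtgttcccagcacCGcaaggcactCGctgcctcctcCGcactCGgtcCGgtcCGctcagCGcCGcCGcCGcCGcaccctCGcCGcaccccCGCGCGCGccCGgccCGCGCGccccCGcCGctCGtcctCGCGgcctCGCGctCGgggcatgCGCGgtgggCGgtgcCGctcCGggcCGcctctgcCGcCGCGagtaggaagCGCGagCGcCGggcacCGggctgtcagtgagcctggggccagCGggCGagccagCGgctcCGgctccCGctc
GALNT17: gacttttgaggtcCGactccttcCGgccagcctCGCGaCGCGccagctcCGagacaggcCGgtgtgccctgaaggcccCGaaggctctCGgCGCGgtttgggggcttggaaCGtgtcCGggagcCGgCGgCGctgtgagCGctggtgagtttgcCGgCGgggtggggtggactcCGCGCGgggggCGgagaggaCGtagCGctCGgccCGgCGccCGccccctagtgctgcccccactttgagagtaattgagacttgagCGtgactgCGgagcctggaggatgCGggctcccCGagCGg
THSD4: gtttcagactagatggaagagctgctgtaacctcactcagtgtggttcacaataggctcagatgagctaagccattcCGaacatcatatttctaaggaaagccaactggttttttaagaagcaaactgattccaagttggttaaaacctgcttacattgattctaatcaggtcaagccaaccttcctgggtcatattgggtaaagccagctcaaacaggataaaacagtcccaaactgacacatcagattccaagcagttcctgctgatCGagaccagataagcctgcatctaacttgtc
The promoters of DIAPH3, PRKCA and GALNT17 held 25, 52 and 35 CG dinucleotides, and that of THSD4 held 2, beside a median of 14 over all 35116 promoters of the table. Among the lower genes 1 promoter was thus rich and 1 poor in CG. The letters TATAAA, searched on both strands, were in none of the 4. They were in 46 of 417 promoters of the 195 members that matched by symbol (11.03%), beside 11.5% of all promoters. PRKCA encodes protein kinase C alpha and measured 4.33 and 5.49 FPKM with DMSO and 6.43 and 6.39 FPKM with etoposide.

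The balance of the members depended on which DMSO library was used. DMSO replicate 1 was the lowest of the 4 libraries for 137 members (57.8%, beside 41.1% of expressed genes), and DMSO replicate 2 was the highest for 140 members (59.1%, beside 17.6%). In the median, DMSO replicate 2 exceeded DMSO replicate 1 by 0.28 on the log2 scale over the members and by 0.0051 over all genes tested. Sets more like the members shared this gap, which was 0.21 over expressed genes that span 200000 to 400000 bases. Among transcripts of 7001 to 10255 bases the gap was 0.34 for members and 0.26 for expressed genes that span under 100000 bases. Among the members, the difference between the DMSO replicates was larger for longer transcripts, with a Spearman rho of 0.55, and went little with span, with a rho of 0.037. These correlations over 237 genes rest on the same 2 libraries and are a description.

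Without DMSO replicate 1, 176 members were lower (74.3%, beside 43.3% of all genes tested) and 61 higher (25.7%, beside 56.7%). Their median log2 fold change was −0.11, and 0.033 over all genes tested. At an unadjusted p under 0.05 in limma, 58 members were lower (24.5%, beside 5.95%) and 8 were higher (3.38%, beside 8.04%). Both etoposide libraries lay below DMSO replicate 2 in 156 members (65.8%, beside 31.2% of all genes tested and 32.4% of expressed genes) and above it in 44 (18.6%, beside 43.9% and 47.3%). None of the members passed an adjusted p of 0.05, and 0.0225% of all genes did (0.0135% higher and 0.00902% lower).

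When DMSO replicate 2 was left out instead, the direction turned. By sign 159 members were higher (67.1%, beside 54.4% of all genes tested) and 78 lower (32.9%, beside 45.6%), and the median was 0.13 beside 0.035. At an unadjusted p under 0.05, 69 were higher (29.1%, beside 17.9%) and 22 lower (9.28%, beside 11.5%). In this fit 26 members passed an adjusted p of 0.05 in limma with Benjamini-Hochberg adjustment (10.97%, beside 8.72% of all genes), 24 higher (background 6.06%) and 2 lower (background 2.66%). The lower ones were GALNT17 and GLIS3, and DIAPH3, PRKCA, EXOC6B, SYNE2, LRBA, PTPRD and ADGRL2 were among the higher ones. Both fits assume that the lone DMSO library varies like the etoposide libraries.

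The libraries were then corrected for transcript length and GC content, by a smooth curve fitted over all genes tested in each library, with no term for span. The curve was fitted in the etoposide libraries too, so it also takes out treatment differences that go with length or GC content. Corrected values are thus relative to genes of similar length and GC content. After the correction 163 members were lower (68.8%, beside 50.4% of all genes tested) and 74 higher (31.2%, beside 49.6%). The median log2 fold change was −0.12, and −0.0025 over all genes tested. At an unadjusted p under 0.05 in limma, 69 members were lower (29.1%, beside 8.37%) and 9 were higher (3.797%, beside 6.94%). No member passed an adjusted p of 0.05, and 0.027% of all genes did, each of them lower. Both etoposide libraries lay below both DMSO libraries in 127 members (53.6%, beside 24.9% of all genes tested and 29.6% of expressed genes) and above in 28 (11.8%, beside 23.7% and 25.5%).

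In the corrected values the direction was the same against either DMSO library. The median deviation of the members from the mean of the 4 libraries was 0.024 in DMSO replicate 1, 0.092 in DMSO replicate 2, and −0.054 and −0.056 in the etoposide libraries. The corrected median log2 fold change was −0.15 without DMSO replicate 1, with 188 members lower and 49 higher. It was −0.095 without DMSO replicate 2, with 147 lower and 90 higher. Both settings were added after the data were seen. The deviations of the 2 groups did not overlap, and the spread between replicates in the corrected median was 0.034 (SD). As deposited, the spread between replicates in the members' median was 0.14 (SD). The correction takes out replicate differences that go with transcript length and GC content, so the smaller corrected spread follows in part from the method.

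**Figure D2:**
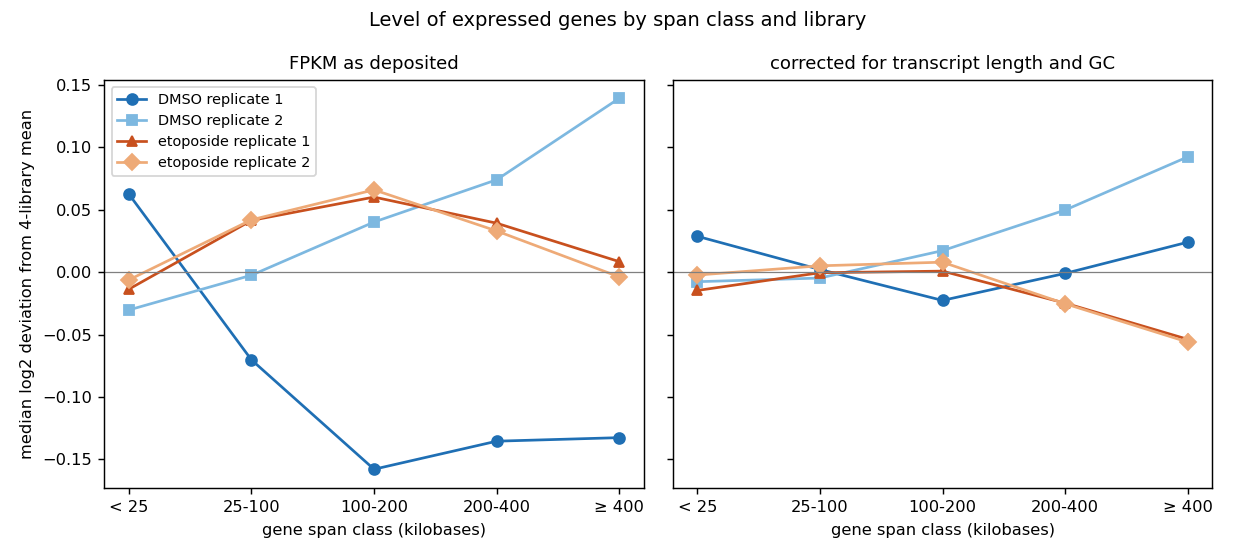
Median log2 deviation from the mean of the 4 libraries in classes of gene span, for each library, with FPKM as deposited and after correction for transcript length and GC content. In the class of at least 400000 bases the deposited values put DMSO replicate 1 at −0.13 and DMSO replicate 2 at 0.14 with the etoposide libraries between them, and the corrected values put both DMSO libraries above both etoposide libraries.

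The members were set beside expressed genes of shorter span. With all 4 libraries the median log2 fold change was −0.020 under 25000 bases, 0.081 from 25000 to 100000 bases, 0.13 from 100000 to 200000 bases, 0.077 from 200000 to 400000 bases and 0.0045 for the members. After correction the same classes gave −0.020, 0.0033, 0.0090, −0.049 and −0.12, with the members lowest and the class next to them in span second lowest. Without DMSO replicate 1 the medians were 0.024, 0.048, 0.026, −0.032 and −0.11, in the same order at the long end. Without DMSO replicate 2 they were −0.075, 0.11, 0.22, 0.17 and 0.13, and the members then lay above both classes under 100000 bases and below the classes next to them in span. The 28 members of at least 1000000 bases had medians of −0.042 with all 4 libraries, −0.21 without DMSO replicate 1, 0.12 without DMSO replicate 2 and −0.19 after correction.

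Genes with a span under 100000 bases served as a comparison within the same range of transcript length. Between the 10th and the 90th percentile of the members' transcript length, 2081 to 10255 bases, there were 189 members and 6002 comparison genes. Their median transcript lengths were 5269 and 3491 bases, so these pooled differences still mix in transcript length. Length was held more alike in the narrower bins given below. With all 4 libraries the medians were −0.00052 for the members and 0.072 for the comparison genes, and 49.7% and 65.5% were higher by sign. The difference of −0.072 was smaller than the spread between replicates in this difference, 0.11 (SD). The difference was −0.16 when DMSO replicate 1 was left out, with medians of −0.11 and 0.047. It turned to 0.029 when DMSO replicate 2 was left out, with medians of 0.12 and 0.091. After correction the medians were −0.12 and 0.0025. The corrected difference was −0.13, larger than the spread between replicates in the corrected difference, 0.043 (SD). The correction also takes out replicate differences that go with transcript length and GC content, which narrows that spread, so this is not a test. Without DMSO replicate 1 the corrected difference was −0.16, and without DMSO replicate 2 it was −0.085.

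With all 4 libraries the distance between the sets was larger for longer transcripts. In transcripts of 2081 to 3396 bases the members had a median of 0.046 and the comparison genes 0.025. The pairs of medians were −0.013 and 0.10 up to 5269 bases, −0.0061 and 0.15 up to 7001 bases, and −0.0038 and 0.19 up to 10255 bases. This pattern differed with the DMSO library. Without DMSO replicate 1 the 4 bins gave the members −0.028, −0.088, −0.13 and −0.13 and the comparison genes 0.036, 0.057, 0.054 and 0.068. Without DMSO replicate 2 they gave 0.056, 0.12, 0.14 and 0.18 for the members and 0.013, 0.14, 0.24 and 0.31 for the comparison genes. The members lay below the comparison genes in all 4 bins without DMSO replicate 1, and in the 3 bins of longer transcripts without DMSO replicate 2. After correction the comparison genes lay between −0.0054 and 0.017 in the 4 bins, and the members at −0.059, −0.14, −0.15 and −0.16. The curve was fitted over all genes, so values near 0 for the comparison genes follow largely from the method.

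**Figure D3:**
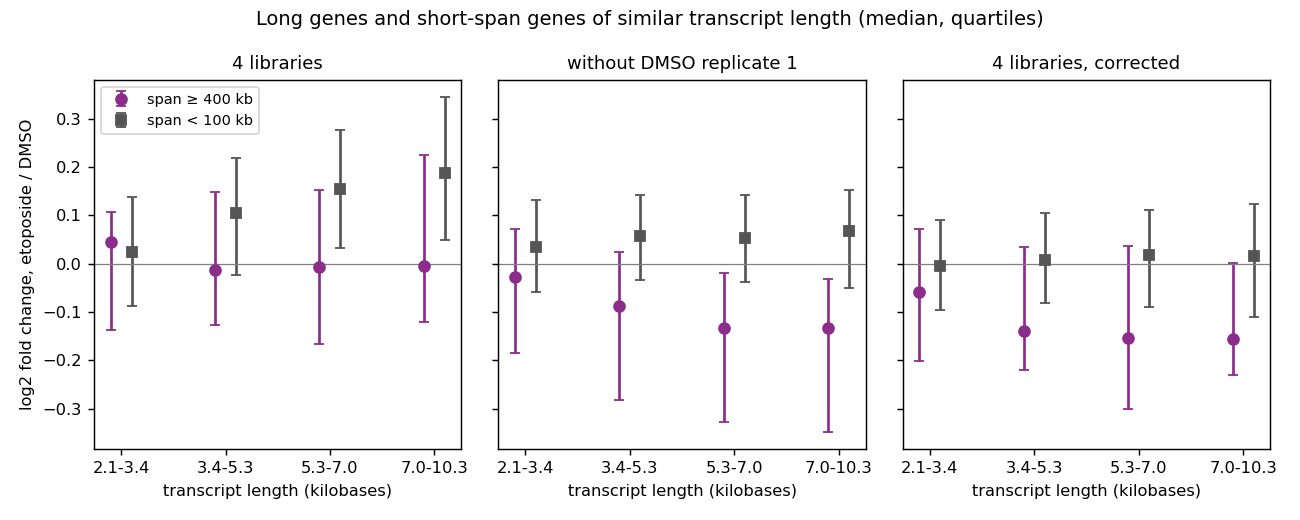
Log2 fold change of etoposide against DMSO (median with quartiles) for members and for genes that span under 100000 bases, in 4 bins of transcript length, with all 4 libraries, without DMSO replicate 1 and after correction for transcript length and GC content. After correction the members' medians run from −0.059 to −0.16 and those of the short-span genes stay near 0, which follows largely from a fit over all genes.

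Members whose FPKM came mainly from transcripts of wide span had the lower median. The 125 members with an FPKM-weighted span of at least 400000 bases had a median log2 fold change of −0.062, with 72 lower and 53 higher by sign. In 42 of them (33.6%, beside 19% of all genes tested) both etoposide libraries lay below both DMSO libraries, and in 14 (11.2%, beside 28.9%) above. The 96 members of 100000 to 400000 bases had a median of 0.043, and the 16 members under 100000 bases had one of 0.065. After correction the 3 medians were −0.16, −0.065 and −0.084, and 77 of the 125 (61.6%, beside 24.9% of all genes tested) had both etoposide libraries below both DMSO libraries. When DMSO replicate 1 was left out they were −0.12, −0.10 and −0.027. When DMSO replicate 2 was left out they turned to 0.069, 0.20 and 0.12, with the widest class lowest in each setting. Across the 237 members, which share the 4 libraries, the log2 fold change went with FPKM-weighted span at a Spearman rho of −0.25, −0.23 without DMSO replicate 1, −0.20 without DMSO replicate 2 and −0.27 after correction, and with the annotated span at −0.078. The weights are the FPKM of these same 4 libraries, so the weighted span and the fold change are not independent. A short transcript that was higher after etoposide, as in GPR158, both shortens the weighted span and raises the fold change. The share of this in the classes and in the rho was not tested.

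**Figure D4:**
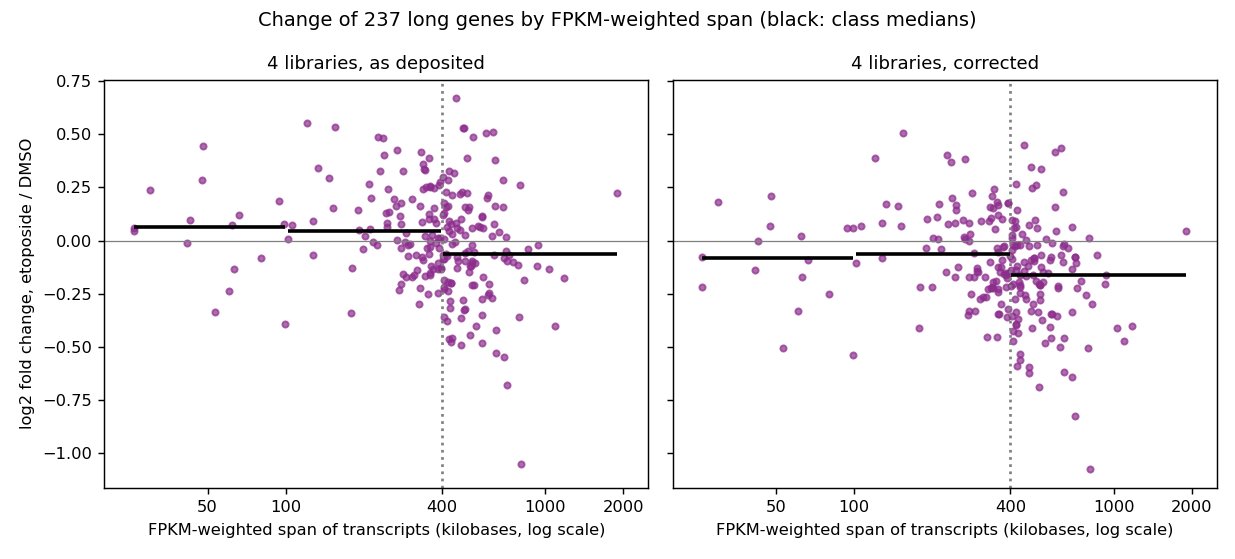
Log2 fold change of each member (points) against the span of its transcripts weighted by FPKM (log scale), as deposited and after correction, with black lines at the medians of 3 classes and a dotted line at 400000 bases. The medians as deposited are 0.065, 0.043 and −0.062 from the shortest to the longest class, and the corrected ones −0.084, −0.065 and −0.16. The weights come from the same libraries as the fold change, so the axes are not independent.

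The single transcripts gave a like order. Of the members' transcripts with a mean of at least 0.1 FPKM, 429 spanned at least 400000 bases, and their median log2 fold change was −0.046. At an unadjusted p under 0.05, 14 of them were higher and 26 lower (3.26% and 6.06%, beside 2.95% and 2.83% of the 71340 transcripts tested by limma). The 341 transcripts of 100000 to 400000 bases had a median of 0.081 and the 322 under 100000 bases had one of 0.093. No transcript passed an adjusted p of 0.05 in limma (0% of all transcripts). The 3 medians were −0.16, −0.037 and 0.0041 without DMSO replicate 1 and 0.037, 0.18 and 0.17 without DMSO replicate 2, so that the transcripts of full span were lowest in both. They held 51.4% and 51.2% with DMSO and 48.8% and 49.3% with etoposide of the members' summed FPKM, and the groups did not overlap.

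In 47 members both a transcript set of at least 400000 bases and one under 100000 bases reached a mean of 0.5 FPKM. The log2 ratio of the long to the short set was lower after etoposide in 29 and higher in 18, with a median difference of −0.11, or −0.20 without DMSO replicate 1 and −0.16 without DMSO replicate 2. Apart from GPR158, 4 of these genes are given, chosen after their values were seen. ROBO1, a receptor for SLIT ligands, had short transcripts at 0.459 and 0.597 FPKM with DMSO and 1.19 and 0.742 FPKM with etoposide and long ones at 10.1 and 14.4 FPKM with DMSO and 13.2 and 12.97 FPKM with etoposide. Its short transcripts were higher in both etoposide libraries, while its long ones overlapped between the groups. The noncoding MIR924HG had long transcripts at 4.33 and 3.96 FPKM with DMSO and 3.65 and 3.66 FPKM with etoposide and short ones at 0.396 and 0.487 FPKM with DMSO and 0.569 and 0.678 FPKM with etoposide. RORA, a nuclear receptor, had short transcripts at 1.69 and 2.99 FPKM with DMSO and 3.07 and 9.81 FPKM with etoposide, where etoposide replicate 2 stood apart from the other 3 libraries. MSI2, an RNA-binding regulator of translation, went the other way, with short transcripts at 4.81 and 4.33 FPKM with DMSO and 2.97 and 3.78 FPKM with etoposide. These values rest on StringTie's division of reads among transcripts that share exons and are less certain than the gene sums.

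Coverage along the gene was a measure that the choice of members did not use. Each gene was split at the midpoint of its span into a proximal part, with the start, and a distal part, and the exon coverage of the distal part was set against that of the proximal part. Over 10465 genes limma called 3 with an adjusted p under 0.05 (0.0287%), none of them a member. Of the 196 members measured, 161 had a lower ratio after etoposide (82.1%, beside 73.4% of all genes tested) and 35 a higher one (beside 26.6%). The median log2 difference was −0.19, and −0.095 over all genes. At an unadjusted p under 0.05, 13 members had a lower and 2 a higher ratio, beside 2.43% and 1.02% of all genes. DMSO replicate 1 had the highest ratio of the 4 libraries in 71.9% of the members and in 64.8% of all genes tested. Without it the median difference was −0.052 for the members and 0.011 for all genes, so that most of the shift rested on that library.

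Some members differed from both DMSO libraries in this ratio. SOX5, a transcription factor, had log2 ratios of 6.08 and 6.17 with DMSO and 4.995 and 4.97 with etoposide, while its summed level (2.18 and 3.45 FPKM with DMSO and 2.55 and 2.71 FPKM with etoposide) overlapped between the groups. Its difference in the log2 ratio of −1.14 ± 0.13 (SE) had an adjusted p of 0.454 (limma, Benjamini-Hochberg). The distal part of SOX5 held 98.66% and 98.7% of the exon coverage with DMSO and 97.09% and 97.02% with etoposide. Its log2 difference thus rests on a small proximal part. In SMYD3, a lysine methyltransferase, the distal part held 72.6% and 68.9% with DMSO and 62.7% and 62.1% with etoposide of the exon coverage. In MIR924HG this share was 65.7% and 65.2% with DMSO and 51.8% and 55.7% with etoposide, and in MACROD2, which removes ADP-ribose from proteins, it was 82.3% and 84.5% with DMSO and 78.04% and 78.3% with etoposide. CAMTA1 had the reverse order, with 5.95% and 7.39% with DMSO and 9.94% and 8.81% with etoposide. SOX5, SMYD3 and MIR924HG were chosen after their values were seen.

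**Figure D5:**
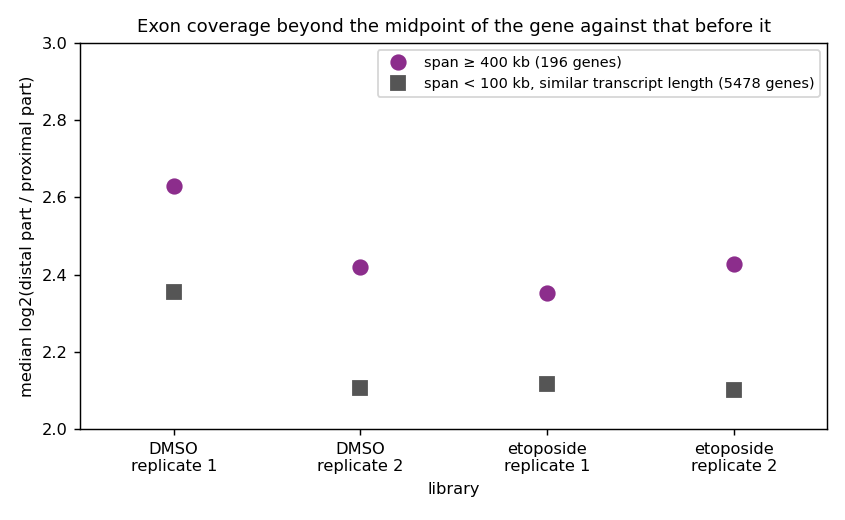
Median log2 ratio of exon coverage in the distal part of the gene to that in the proximal part, for each library, over 196 members and over 5478 genes of similar transcript length that span under 100000 bases. DMSO replicate 1 stands highest for both sets (2.63 and 2.36), and the other 3 libraries lie between 2.35 and 2.43 for the members and between 2.103 and 2.12 for the short-span genes.

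The members were then read by role, in lists that hold 142 of them. The counts stand beside the 7.06% higher and 4.85% lower of all genes at an unadjusted p under 0.05, and no member of any list passed the adjusted threshold of limma. Of 19 adhesion and polarity genes, 9 had higher and 10 lower values, 1 and 4 of them at an unadjusted p under 0.05. Their log2 fold changes had a median of −0.041, which was −0.17 without DMSO replicate 1, 0.16 without DMSO replicate 2 and −0.13 after correction. THSD4 and ROBO2 belong to them. CTNNA2, an alpha-catenin that ties cadherins to actin, measured 4.79 and 5.62 FPKM with DMSO and 3.96 and 3.83 FPKM with etoposide, with no overlap. TENM3, a teneurin and one of the most abundant members, measured 48.96 and 68.3 FPKM with DMSO and 50.4 and 49.6 FPKM with etoposide, where DMSO replicate 2 stood apart from the other 3 libraries. PTPRD measured 4.35 and 6.46 FPKM with DMSO and 6.31 and 6.103 FPKM with etoposide, and here DMSO replicate 1 stood apart. Outside this list, CSMD1, a membrane protein that spans 2059619 bases, measured 1.2001 and 1.46 FPKM with DMSO and 1.396 and 1.22 FPKM with etoposide. ADGRL2, an adhesion G protein-coupled receptor that is also outside the list, measured 41.3 and 57.7 FPKM with DMSO and 53.7 and 54.4 FPKM with etoposide. Both genes overlapped between the groups.

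Of 12 cytoskeletal genes, 9 had higher and 3 lower values, 1 and 0 of them at an unadjusted p under 0.05. The group had a median log2 fold change of 0.11, against −0.097 and 0.34 when DMSO replicate 1 or 2 was left out, and 0.042 after correction. SYNE2, a giant nesprin of the nuclear envelope, measured 7.59 and 12.1 FPKM with DMSO and 13.3 and 12.3 FPKM with etoposide. Its groups did not overlap, yet the DMSO replicates lay farther apart than DMSO replicate 2 and either etoposide library. NCKAP5 measured 3.13 and 4.28 FPKM with DMSO and 2.76 and 2.91 FPKM with etoposide, with no overlap and DMSO replicate 2 the highest. PALLD, an actin-bundling protein, overlapped between the groups at 49.5 and 62.5 FPKM with DMSO and 59.1 and 56.3 FPKM with etoposide.

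Of 14 regulators of small GTPases, 9 had higher and 5 lower values, 1 and 1 of them at an unadjusted p under 0.05. In the median they differed by 0.12 on the log2 scale, by −0.0035 without DMSO replicate 1, by 0.19 without DMSO replicate 2 and by −0.026 after correction. AGAP1, a GTPase-activating protein for ARF, measured 12.98 and 14.8 FPKM with DMSO and 11.6 and 11.3 FPKM with etoposide. KALRN, an exchange factor for small GTPases, measured 2.14 and 2.64 FPKM with DMSO and 3.04 and 2.98 FPKM with etoposide, in the opposite direction, and neither gene's groups overlapped. The 1 counted as higher by unadjusted p was TIAM2, which lay under the level limit in the DMSO mean. The higher value of TIAM2 is thus in part set by the choice of members. Of 21 genes in a list of kinases, phosphodiesterases and receptors, 11 had higher and 10 lower values, 2 and 2 of them at an unadjusted p under 0.05. The median of their log2 fold changes was 0.010, with −0.11 without DMSO replicate 1, 0.14 without DMSO replicate 2 and −0.093 after correction. The list also holds the phospholipase genes PLCB1 and PLCB4, the mTOR partner RPTOR, the ligand NRG1 and CDKAL1, which stands in the RNA list as well. CAMK1D, a calcium and calmodulin-dependent kinase, measured 4.43 and 4.84 FPKM with DMSO and 3.58 and 3.76 FPKM with etoposide. SORCS2, a sorting receptor, measured 2.96 and 3.06 FPKM with DMSO and 2.44 and 2.34 FPKM with etoposide, and PRKCA, whose promoter is printed above, belongs to this list. Both CAMK1D and SORCS2 were lower in each etoposide library.

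Of 32 transcription factors and chromatin regulators, 13 had higher and 19 lower values, 1 and 5 of them at an unadjusted p under 0.05. Their log2 fold changes had a median of −0.046, which was −0.17 without DMSO replicate 1, 0.088 without DMSO replicate 2 and −0.17 after correction. After correction 24 of them were lower. TSHZ2, a zinc finger homeobox protein, measured 4.31 and 4.69 FPKM with DMSO and 3.37 and 3.19 FPKM with etoposide, with no overlap, and NPAS3 and GLIS3 belong to this list. RERE, a corepressor and one of the most abundant members, measured 51.8 and 57.6 FPKM with DMSO and 48.7 and 51.3 FPKM with etoposide. CAMTA1, the most abundant member, measured 85.4 and 84.3 FPKM with DMSO and 89.6 and 89.5 FPKM with etoposide, a log2 difference of 0.077 ± 0.067 (SE).

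Of 15 genes of membrane traffic, autophagy and lipid transfer, 5 had higher and 10 lower values, 1 and 0 of them at an unadjusted p under 0.05. The group had a median log2 fold change of −0.050, against −0.093 and 0.038 when DMSO replicate 1 or 2 was left out, and −0.12 after correction. EXOC6B, a subunit of the exocyst, measured 2.48 and 3.15 FPKM with DMSO and 3.63 and 3.71 FPKM with etoposide. LRBA, a regulator of vesicle traffic, measured 7.18 and 12.2 FPKM with DMSO and 12.02 and 10.9 FPKM with etoposide, and VPS13B, a lipid transfer protein, measured 1.97 and 2.76 FPKM with DMSO and 2.801 and 2.83 FPKM with etoposide. In all of these 3 genes DMSO replicate 1 was the lowest library. Of 16 genes of metabolism and mitochondria, a list that also holds ion channels, 6 had higher and 10 lower values, 1 and 1 of them at an unadjusted p under 0.05. In the median they differed by −0.090 on the log2 scale, by −0.068 without DMSO replicate 1, by −0.095 without DMSO replicate 2 and by −0.15 after correction. CACNA2D1, a subunit of calcium channels, measured 0.741 and 1.04 FPKM with DMSO and 1.41 and 1.22 FPKM with etoposide, and SCFD2, a protein of the Sec1 family, measured 3.74 and 4.04 FPKM with DMSO and 3.04 and 3.34 FPKM with etoposide. GALNT17 stands in this list too, and the groups of these genes did not overlap. CACNA2D1, the 1 counted as higher by unadjusted p, lay under the level limit in the DMSO mean. Its higher value is thus in part set by the choice of members.

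Of 4 genes of RNA binding and processing, 1 had higher and 3 lower values, 0 and 0 of them at an unadjusted p under 0.05. The median of their log2 fold changes was −0.068, with −0.13 without DMSO replicate 1, −0.0030 without DMSO replicate 2 and −0.19 after correction. RBMS3, which binds single-stranded nucleic acids, measured 2.13 and 2.36 FPKM with DMSO and 2.07 and 1.64 FPKM with etoposide. CDKAL1, a tRNA-modifying enzyme, overlapped between the groups at 4.28 and 4.65 FPKM with DMSO and 4.88 and 4.57 FPKM with etoposide. EXOC4, another exocyst subunit that the list holds, measured 14.3 and 16.1 FPKM with DMSO and 13.997 and 14.3 FPKM with etoposide. Of 3 genes of ubiquitin and protein turnover, 1 had higher and 2 lower values, 0 and 0 of them at an unadjusted p under 0.05. Their log2 fold changes had a median of −0.097, which was −0.15 without DMSO replicate 1, 0.0065 without DMSO replicate 2 and −0.17 after correction. FBXL17, a substrate receptor of ubiquitin ligases, measured 4.62 and 5.404 FPKM with DMSO and 4.46 and 4.83 FPKM with etoposide, with overlap. BTBD9, a BTB domain protein, measured 1.53 and 1.65 FPKM with DMSO and 1.44 and 1.52 FPKM with etoposide, and PCSK5, a proprotein convertase, measured 0.916 and 0.943 FPKM with DMSO and 1.11 and 1.05 FPKM with etoposide. PCSK5 is the 1 higher gene of these 3 and lay under the level limit in both DMSO libraries. Its higher value is thus in part set by the choice of members.

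Of 7 genes of genome maintenance and the cell cycle, 3 had higher and 4 lower values, 0 and 0 of them at an unadjusted p under 0.05. The group had a median log2 fold change of −0.13, against −0.074 and −0.036 when DMSO replicate 1 or 2 was left out, and −0.071 after correction. CEP128, a centriole protein, measured 5.998 and 7.17 FPKM with DMSO and 8.24 and 7.34 FPKM with etoposide, and TTC28 measured 5.38 and 6.61 FPKM with DMSO and 5.05 and 4.903 FPKM with etoposide. MAD1L1, a part of the spindle checkpoint, measured 6.75 and 6.21 FPKM with DMSO and 6.14 and 5.67 FPKM with etoposide, with DMSO replicate 1 the highest library, as in 21 members in all.

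Genes at common fragile sites made up 20 of the members. Of 20 genes at these sites, 9 had higher and 11 lower values, 2 and 0 of them at an unadjusted p under 0.05. In the median they differed by −0.075 on the log2 scale, by −0.14 without DMSO replicate 1, by 0.17 without DMSO replicate 2 and by −0.16 after correction. The values of all members after correction had a median of −0.12, near theirs. The 2 with higher values at an unadjusted p under 0.05 were DIAPH3 and CCSER1, the latter at 0.860 and 1.22 FPKM with DMSO and 1.41 and 1.595 FPKM with etoposide. RORA measured 6.11 and 9.45 FPKM with DMSO and 9.55 and 15.4 FPKM with etoposide, where etoposide replicate 1 lay beside DMSO replicate 2 and etoposide replicate 2 stood apart. IMMP2L, a mitochondrial peptidase, measured 4.77 and 4.09 FPKM with DMSO and 3.85 and 3.801 FPKM with etoposide, and MACROD2 measured 4.21 and 4.52 FPKM with DMSO and 3.73 and 4.09 FPKM with etoposide. ATXN1, a transcriptional corepressor, measured 1.7997 and 1.99 FPKM with DMSO and 1.77 and 1.59 FPKM with etoposide. These 3 genes were lower in each etoposide library, as was MAD1L1.

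Of the 20 genes, 5 were higher and 4 lower in groups that do not overlap (25% and 20%), close to the 28.9% and 19% of all genes tested. In the others the groups overlapped. ERBB4, a receptor tyrosine kinase, measured 3.69 and 5.77 FPKM with DMSO and 4.196 and 4.21 FPKM with etoposide. PARD3B, a polarity protein, measured 5.45 and 7.77 FPKM with DMSO and 5.62 and 5.82 FPKM with etoposide, and PTPRG, a receptor phosphatase, measured 8.95 and 15.3 FPKM with DMSO and 11.7 and 10.7 FPKM with etoposide. In these 3 genes both etoposide libraries lay between DMSO replicate 1, the lowest, and DMSO replicate 2, the highest. The same held for FOXP1, LPP, ESRRG and AUTS2, with log2 fold changes of −0.092, 0.16, 0.25 and 0.0045. WWOX, an oxidoreductase, measured 0.958 and 1.53 FPKM with DMSO and 1.63 and 1.38 FPKM with etoposide, PDE4D, a phosphodiesterase of cyclic AMP, measured 2.64 and 3.57 FPKM with DMSO and 2.58 and 3.05 FPKM with etoposide, and NAALADL2 measured 1.93 and 2.35 FPKM with DMSO and 1.68 and 2.39 FPKM with etoposide. In the last 3 genes and in EXOC4 the groups overlapped with an etoposide library as the highest or the lowest.

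A list of axon guidance and synapse genes was added after the values were seen. Of its 24 members, 12 had higher and 12 lower values, 1 and 1 of them at an unadjusted p under 0.05. The median of their log2 fold changes was 0.017, with −0.11 without DMSO replicate 1, 0.16 without DMSO replicate 2 and −0.080 after correction. ROBO2 belongs to them. The 95 members in no role list had a median of 0.033, and −0.12 after correction, with 65 lower.

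Outside the members, the genes of topoisomerases and of the repair of trapped topoisomerases were read from one list and those of transcription elongation from another. Of 10 topoisomerase genes, 7 had higher and 3 lower values, 1 and 0 of them at an unadjusted p under 0.05. Their log2 fold changes had a median of 0.032, which was 0.066 without DMSO replicate 1, 0.065 without DMSO replicate 2 and 0.057 after correction. The gene under this unadjusted limit was ZNF451, at 10.3 and 13.2 FPKM with DMSO and 14.7 and 15.6 FPKM with etoposide. TOP2B, the isoform of topoisomerase II that non-dividing cells use as well, measured 32.2 and 44.1 FPKM with DMSO and 45.1 and 45.3 FPKM with etoposide, and TOP2A, the isoform of dividing cells, named here outside the rule as a target of the drug, measured 38.6 and 46.3 FPKM with DMSO and 40.9 and 39.5 FPKM with etoposide. Neither passed the test (adjusted p = 0.491 and 0.784 by limma with Benjamini-Hochberg). Of 50 elongation genes, 35 had higher and 15 lower values, 4 and 1 of them at an unadjusted p under 0.05. The group had a median log2 fold change of 0.13, against 0.041 and 0.21 when DMSO replicate 1 or 2 was left out, and 0.030 after correction. ELL2, a subunit of the super elongation complex, measured 2.79 and 3.397 FPKM with DMSO and 4.58 and 4.23 FPKM with etoposide. POLR2A was also higher, at 21.2 and 21.1 FPKM with DMSO and 24.8 and 24.7 FPKM with etoposide. HEXIM1, an inhibitor of the elongation kinase P-TEFb, measured 38.8 and 39.9 FPKM with DMSO and 34.04 and 34.3 FPKM with etoposide, in the opposite direction.

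Members that share exons with another gene lay near the rest. In 29 members the exons overlap those of an expressed gene on the opposite strand, and their median log2 fold change was −0.035 beside 0.0072 for the other 208. After correction the medians were −0.17 and −0.10. Of the genes given by value, TIAM2, TENM3, PALLD, TTC28, RORA, LPP, PDE4D and PTPRG are such members, and their values may hold reads of the partner. The 11 long noncoding RNA genes had a median of 0.046 with 6 higher and 5 lower, and the 226 protein-coding genes had one of 0.0020 with 113 higher and 113 lower.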

How the data were processed

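Libraries of OVCAR3 cells, 2 with DMSO and 2 with etoposide, were grouped by their labels. Per the labels and the study's methods, the authors aligned 100-base paired reads of a stranded mRNA kit to GRCh38 (HISAT2, then SAMtools). They quantified Ensembl 104 transcripts with StringTie 2.1.7, and no strand option was stated. The deposited files give, for each of 236853 transcripts, a coverage per base, an FPKM and a TPM. Counts were not used here.

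FPKM were summed per gene and tested with limma 3.58.1 in R 4.3.3 (trend, robust) on log2(FPKM + 0.1), which understates changes of low genes, for genes with a mean of at least 0.1 FPKM. P-values were adjusted by Benjamini-Hochberg over all genes tested. Transcripts were fitted likewise. For the coverage of the distal and the proximal part of a gene, exon coverage times length was summed, 200 bases were added to each part, and genes needed a mean of 2000 covered bases in each. These log2 ratios were fitted without a trend. Span, transcript length and GC content were weighted by FPKM, and the correction for length and GC content was a loess (span 0.3) per library. Gene types came from GENCODE release 44, which held 60463 of the gene IDs. Fragments were estimated as coverage times length over the 200 bases of a read pair, and without counts no counting interval was made.

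The members, lists and tests were chosen with earlier results of these data known. Named members are the 6 higher and 6 lower ones of smallest p, the 5 of longest span, the 5 of highest FPKM, those at common fragile sites, up to 3 of smallest p in each role list and those nearest a limit. Of other lists up to 3 were named, and 1 named member is not reported here. The gene test was checked on simulated data, and the same code fitted transcripts and coverage. Alternatives were other pseudocounts, filters, scalings and limits, voom, the correction, a replicate block and leaving out each library.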

Additional observations from a re-analysis of the deposited data

How the results depend on the processing

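Of all genes tested, 0 were called at an adjusted p under 0.05 with limma under other pseudocounts, filters, TPM, another scaling and no trend, 1 with voom, 6 after the correction for transcript length and GC content, and between 5 (without DMSO replicate 1) and 1934 (without DMSO replicate 2) when 1 library was left out. Leaving out 1 library gave between 61 and 159 members higher and between 78 and 176 lower by sign. With groups that do not overlap, it gave between 44 and 142 higher and between 66 and 156 lower. A lone library is parted from 2 others more easily than 2 from 2, in any gene. Without DMSO replicate 1, the 44 higher and 156 lower members (18.6% and 65.8%) stand beside 43.9% and 31.2% of all genes tested. For the other fits no such share is given here, so their counts do not set the members apart. The correction gave 74 higher by sign, and with DMSO replicate 1 also left out, a setting chosen after seeing the data, a median of −0.15. Under other limits on span and level the median ran from −0.019 to 0.028, and it was −0.062 with the limit set on the FPKM-weighted span instead. The coverage ratio called between 0 and 5 genes without 1 library and 0 with exons within 100000 bases of the start against those beyond, and the members' median ran from −0.33 (without DMSO replicate 2) to −0.052 (without DMSO replicate 1). The causes were not tested.

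The labels do not say that a replicate number marks a shared culture. The replicate differences of the 2 groups had a Pearson r of 0.013 over all genes tested, with no sign of pairing, and a replicate block called 0 genes, left the members' median at 0.0045 and changed no call.

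Some named members of small difference changed sign. Over the fits without 1 library the log2 fold changes ran for CSMD1 from −0.16 to 0.11, for PTPRD from −0.057 to 0.50, for ADGRL2 from −0.094 to 0.39, for TENM3 from −0.45 to 0.030, for PALLD from −0.11 to 0.22, for LRBA from −0.093 to 0.66, for FBXL17 from −0.22 to 0.0065, for WWOX from −0.026 to 0.60, for PARD3B from −0.44 to 0.069. They ran for ESRRG from −0.12 to 0.62, for LPP from −0.095 to 0.41, for PDE4D from −0.34 to 0.084, for ERBB4 from −0.45 to 0.18, for FOXP1 from −0.36 to 0.17, for NAALADL2 from −0.32 to 0.16, for PTPRG from −0.45 to 0.31, for AUTS2 from −0.15 to 0.16, for BMPR1B from −0.14 to 0.16, for TRPS1 from −0.12 to 0.25. After correction they were −0.035 for ADGRL2, −0.025 for CDKAL1, −0.13 for LPP, −0.22 for BMPR1B and −0.17 for TRPS1. Scaling to the same median gave −0.015 for PALLD, −0.065 for AUTS2, −0.059 for BMPR1B and −0.0035 for TRPS1, voom gave −0.0067 for AUTS2 and −0.020 for TRPS1, and TPM gave 0.042 for CSMD1.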
